A study of Homo sapiens with 7 samples.

Results

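The 40 genes described here make the protein machinery of ribosome biogenesis in the nucleolus, and they were followed in H4 cells through 720 min of continuous blue light. They were taken by symbol from a list of names, which was drawn up with earlier results of these data known. All 40 were found among the 18817 gene rows of the deposited tables, and all 40 were among the 13566 genes that had at least 10 counts in at least 3 libraries and were tested. Each member held at least 147 counts in every library that lists it.

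H4 is an established human neuroglioma line. The cells of every group carried Cry2Olig-PKR (opto-PKR), in which the light-clustering protein Cry2Olig is joined to PKR, a kinase whose action on the translation factor eIF2 sets off the integrated stress response. Per the labels, plated cells received blue light at an intensity of 7.5 mcd for 0, 60, 120, 240, 480, 600 or 720 min and were lysed at once, with 1 library per time. The sources used here do not say whether the line is 1 clone. Cultures kept dark for the later times and lit cells without the construct were not analysed here; the effects of light and of time since plating cannot be told apart.

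Ribosomal RNA is transcribed in the nucleolus by RNA polymerase I as a long precursor, which is modified, folded and cut while ribosomal proteins bind to it. Small nucleolar ribonucleoproteins (snoRNPs) modify the precursor: those of the box C/D class methylate riboses and those of the box H/ACA class convert uridines to pseudouridine. Large assemblies of processing factors then cut and fold the parts that become the small and the large ribosomal subunit. The transcription factor MYC and its partner MAX are known to activate many of these genes through a short DNA motif, the E-box.

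Promoters that hold the E-box CACGTG are shown for 4 members because the motif is the feature of their regulation best known from other systems. Among members with an E-box they had the smallest p-values for the bend, a measure of curvature over time defined below. The sequences are from RefSeq (build GRCh38.p14) and run 5′ to 3′ from 250 bases before the start of the transcript to 20 bases after it. The E-box is in capitals, and it reads the same on both strands. The windows are chr10:68956397-68956666 (plus strand) for the RNA helicase gene DDX21, chr19:39846360-39846629 (minus strand) for the ribose methyltransferase gene FBL, chr3:51941885-51942154 (minus strand) for the U3 snoRNP protein gene RRP9 and chr2:28894417-28894686 (plus strand) for the small-subunit processing gene WDR43.
DDX21: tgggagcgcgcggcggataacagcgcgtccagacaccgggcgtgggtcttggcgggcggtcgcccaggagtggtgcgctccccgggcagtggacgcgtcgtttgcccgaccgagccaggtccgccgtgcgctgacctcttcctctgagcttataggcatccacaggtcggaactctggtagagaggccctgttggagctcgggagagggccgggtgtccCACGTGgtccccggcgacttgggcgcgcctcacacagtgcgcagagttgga
FBL: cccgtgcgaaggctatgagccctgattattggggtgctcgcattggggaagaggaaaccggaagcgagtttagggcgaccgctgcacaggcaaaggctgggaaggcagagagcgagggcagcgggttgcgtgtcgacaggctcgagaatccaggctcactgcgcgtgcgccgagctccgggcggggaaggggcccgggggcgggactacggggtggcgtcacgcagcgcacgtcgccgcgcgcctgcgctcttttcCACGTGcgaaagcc
RRP9: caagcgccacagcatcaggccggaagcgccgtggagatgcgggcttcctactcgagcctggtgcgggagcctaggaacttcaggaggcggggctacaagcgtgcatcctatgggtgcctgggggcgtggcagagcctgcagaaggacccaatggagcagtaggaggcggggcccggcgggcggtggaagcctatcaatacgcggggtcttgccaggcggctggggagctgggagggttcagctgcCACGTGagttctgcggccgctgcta
WDR43: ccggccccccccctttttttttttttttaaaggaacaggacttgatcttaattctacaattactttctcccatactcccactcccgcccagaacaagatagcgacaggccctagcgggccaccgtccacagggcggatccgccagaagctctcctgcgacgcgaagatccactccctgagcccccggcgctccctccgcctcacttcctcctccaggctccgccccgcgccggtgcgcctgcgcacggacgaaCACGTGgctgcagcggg
The motif begins 31 bases before the start shown for DDX21 and 5 bases before that of RRP9. Another RefSeq window of DDX21, chr10:68955920-68956219, held no E-box and is not shown. In WDR43 and FBL the motif begins at transcribed base 4 and transcribed base 7. The first and last of these promoters belong to genes with a positive bend, and the others to genes with a negative one.

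Transcripts were counted near their 3′ ends, each tagged by a unique molecular identifier (UMI). The 6 complete libraries held 7048253 to 8911818 transcripts. The rows of the 480 min table are alphabetical and end at NME1-NME2, with 5266123 transcripts in all, so 12 members have a value at all 7 times and 28 have none at 480 min. Levels are scaled counts (CPM, counts brought to 1 common library size), and they are compared here between libraries, not between genes. The labelled cell type was checked against 7 markers of glial cells or glioma. VIM (682 to 886 CPM), CD44 (495 to 703 CPM), SOX9 and SOX2 were present, NES did not pass 1.65 CPM, and GFAP and S100B were listed in no library. Markers of blood and liver were at or near 0 (PTPRC at most 0.353 CPM, ALB at most 0.264 CPM). Of 4 epithelial markers, EPCAM and CDH1 were near 0 (at most 0.256 and 0.115 CPM). The other epithelial markers, KRT18 and KRT8, were present at 96.2 to 183 and 10.8 to 22.4 CPM. Of the mesenchymal markers, COL1A1 (67.8 to 118 CPM) and PDGFRB (11.7 to 28.1 CPM) were present, and COL1A2 did not pass 1.06 CPM. Of the neuronal markers, TUBB3 was present at 198 to 326 CPM, and SYP and RBFOX3 did not pass 1.38 CPM. In bulk RNA, fewer cells of a kind and less RNA per cell cannot be told apart.

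With no repeated time, no value has a replicate. Change over time was tested across libraries with edgeR's quasi-likelihood F test, adjusted over all 13566 genes with a threshold of 0.05. A trend is the fitted log2 change from 0 to 720 min along a straight line. A bend sets the fitted log2 level at 360 min against the average of those fitted at the start and the end. It is positive where the middle lay above that average and negative where it lay below. A gene that rose early and stayed up can thus also have a positive bend. The spread that the test uses holds both noise and departures from the fitted shape, and it may be technical.

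Of the 40 members, 25 passed neither the test for a trend nor that for a bend. Along a straight line 2 rose, the box H/ACA protein gene GAR1 and the large-subunit factor gene NOP16, and 0 fell. Over all genes tested 6.86% had a trend, 3.9% rising and 2.96% falling. At an unadjusted p under 0.05, 7 members had a trend (17.5%), against 23.1% of all genes. A bend was called in 13 members (32.5%), against 31.2% of all genes, so the members bent about as often as other genes did. Of these, 9 bent upward (22.5% of members, 17.5% of all genes): UTP15, RRN3, POLR1B, WDR36, WDR43, WDR75, DDX10, UTP14A and DDX21. The other 4 bent downward (10% of members, 13.7% of all genes): BOP1, NHP2, RRP9 and FBL.

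Single times were set against 0 min without a test. Only BOP1 was at least 2-fold lower at any time, at 240 min. Only GAR1 was at least 2-fold higher, at 720 min. Of all genes with at least 50 counts, 2.19% were at least 2-fold higher at 60 min and 0.411% lower, and 5.63% and 3.11% at 120 min. The shares were 10.5% higher and 6.13% lower at 240 min, 9.63% and 6.4% at 480 min, 6.35% and 4.59% at 600 min, and 4.94% and 4.64% at 720 min. The median log2 ratio over the members was 0.06, 0.13, 0.16, 0.17 and 0.23 at 60, 120, 240, 600 and 720 min, while over all genes it lay between -0.03 and 0.00. Together the members held 0.665% of all transcripts at 0 min (95% Wilson interval 0.659% to 0.670%), 0.742% at 240 min (0.736% to 0.747%) and 0.745% at 720 min (0.739% to 0.751%). These intervals, like those of the folds below, cover counting error only. They treat the transcript counts as plain counts and leave out the error of the correction for repeated UMIs. They are therefore too narrow where that correction is steep, as for DDX21 and NPM1. DDX21 held 4934 of the members' 56511 transcripts at 0 min and 7104 of 58997 at 720 min.

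**Figure D1:**
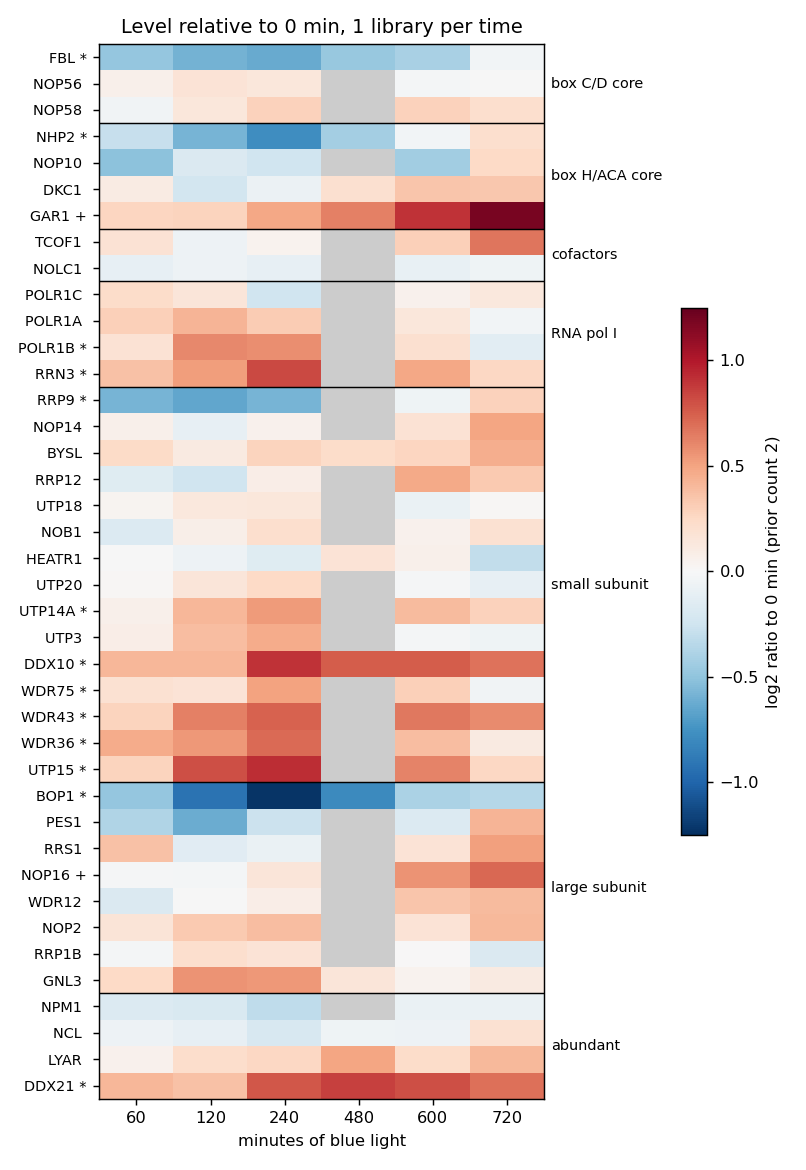
Level of each of the 40 members at each time as a log2 ratio to 0 min (prior count 2), 1 library per time, with members in rows grouped by role and minutes of blue light in columns. Grey cells have no value at 480 min, an asterisk marks a called bend and a plus sign a called trend; red rows are most frequent in the RNA polymerase I and small-subunit groups, and BOP1 at 240 min is the darkest blue cell.

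RNA polymerase I, the enzyme that starts the pathway, was represented by 4 genes, and 2 of them bent upward. RRN3, the factor that brings the polymerase to its promoter, was at 129, 166, 185, 229, 181 and 154 CPM at 0, 60, 120, 240, 600 and 720 min. It was thus lowest in the unlit library and highest at 240 min, at 1.78-fold (95% interval 1.65 to 1.91) of the 0 min level. Its bend was 0.76 ± 0.17 (SE, edgeR adjusted p = 0.0052). The genome holds near-identical copies of part of RRN3, and of UTP14A below, so the counts of both are uncertain. POLR1B, the gene of the second largest polymerase subunit, was at 123, 139, 186, 184, 141 and 112 CPM at the same times. Its level was highest at 120 and 240 min and lowest at 720 min, and the bend was 0.74 ± 0.18 (SE, edgeR adjusted p = 0.0084). POLR1A, the largest subunit, stood at 19.9, 24.5, 26.9, 24.9, 22.0 and 19.4 CPM, highest in the same 2 libraries, with a bend of 0.39 ± 0.24 (SE, edgeR adjusted p = 0.22). POLR1C, which RNA polymerase III also uses, was lowest at 240 min at 107 CPM, against 128 CPM at 0 min, and its bend of -0.25 did not pass the threshold (edgeR adjusted p = 0.36). All 4 genes were above the 0 min level at 60, 120 and 600 min. The counting interval spanned 1 for POLR1A at 60 and 600 min and for POLR1C at 600 min. Over all 13566 genes tested, 6635, 6471 and 6736 were above it at those times. Without the 0 min library the bends of RRN3 and POLR1B were 0.64 and 0.66, and no longer passed (edgeR adjusted p = 0.062 and 0.076). Without the 240 min library they were 0.72 and 0.88, and did not pass either (edgeR adjusted p = 0.10 and 0.068).

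Of the 3 core proteins of box C/D snoRNPs, 1 bent downward and the others were not called. FBL, the methyltransferase itself, was at 254, 181, 169, 164, 182, 192 and 248 CPM at the 7 times from 0 to 720 min. All 5 libraries from 60 to 600 min were below both the first and the last library. At 240 min the level was 0.646-fold (95% interval 0.605 to 0.691) of that at 0 min, and the bend was -0.60 ± 0.15 (SE, edgeR adjusted p = 0.011). NOP58, one of the scaffold proteins that hold the guide RNA, was at 391, 379, 430.2, 478, 476 and 452 CPM at the 6 times with a value. Its highest libraries were 240 and 600 min, and its bend of 0.25 ± 0.14 (SE, edgeR adjusted p = 0.20) did not pass. NOP56, the partner scaffold, varied between 338 and 386 CPM and had a bend of 0.14 (edgeR adjusted p = 0.49). At 240 min FBL was below its 0 min level and both scaffold genes were above theirs, with 1.10-fold (95% interval 1.05 to 1.16) for NOP56; the difference between the genes was not tested. Without the 0 min library the FBL bend was -0.41 (edgeR adjusted p = 0.088).

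The 4 core proteins of box H/ACA snoRNPs, which also form part of telomerase, held the member that rose the most and one that dipped. GAR1 was at 57.3, 69.0, 69.8, 80.2, 89.0, 107 and 131 CPM from 0 to 720 min. Every library was higher than the one before it, although the step from 60 to 120 min was within counting error, and at 720 min the level was 2.28-fold (95% interval 2.05 to 2.55) of that at 0 min. The trend was 1.01 ± 0.17 (SE, edgeR adjusted p = 0.010). NHP2 was at 299, 244, 200.2, 175, 223, 293 and 346 CPM at the same times. It was lowest at 240 min, at 0.584-fold (95% interval 0.548 to 0.622) of the 0 min level, and highest at 720 min. Its bend was -0.79 ± 0.15 (SE, edgeR adjusted p = 0.0032). DKC1, the pseudouridine synthase dyskerin, was at 445, 478, 380.5, 422, 510.4, 568 and 562 CPM. Its 3 highest libraries were 480, 600 and 720 min, and its trend of 0.43 ± 0.16 (SE, edgeR adjusted p = 0.14) did not pass. NOP10, the smallest of the proteins, varied between 64.3 and 110 CPM with no call. At 720 min all 4 genes were above their 0 min levels, as were 28 of the 40 members and 6731 of all 13566 genes tested. The NHP2 bend passed under each of the 18 alternatives tried. The GAR1 trend was 1.03 without the 600 min library (edgeR adjusted p = 0.066) and 0.90 without the 720 min library (edgeR adjusted p = 0.061).

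TCOF1 and NOLC1 encode treacle and its binding partner, which tie snoRNPs to RNA polymerase I. TCOF1 was at 161, 182, 154, 166, 197 and 256 CPM at the 6 times with a value. It was highest at 720 min, and its trend of 0.56 ± 0.18 (SE, edgeR adjusted p = 0.11) did not pass. NOLC1 stayed between 180.2 and 194 CPM in every library, a trend of -0.02 (edgeR adjusted p = 0.95).

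**Figure D2:**
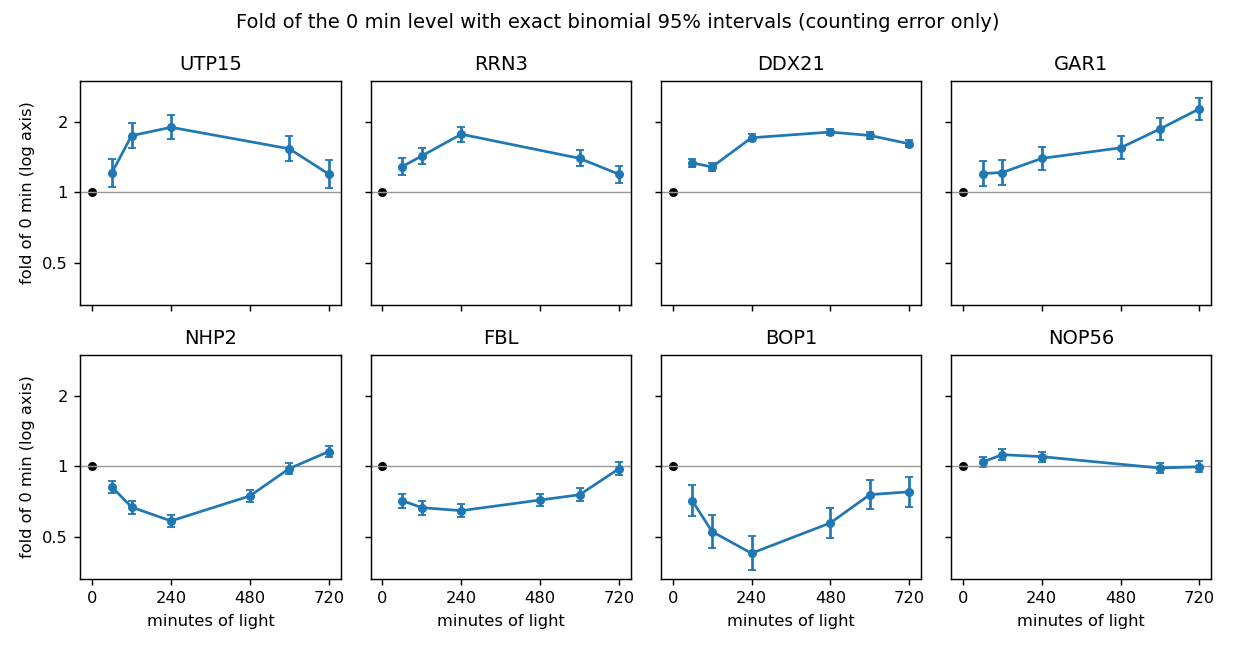
Fold of the 0 min level (log axis) against minutes of blue light for 8 members, 1 library per time, with exact binomial 95% intervals for counting error only and the 0 min library as a black point. UTP15, RRN3 and DDX21 stood above 1 at every later time, GAR1 climbed to 2.28, NHP2, FBL and BOP1 dipped to 0.584, 0.646 and 0.424 at 240 min, and NOP56 stayed near 1.

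Factors that process the small-subunit part of the precursor were the largest class, with 15 genes, of which 6 bent upward and 1 downward. UTP15, a member of the subcomplex that binds the precursor first, was at 48.9, 59.3, 85.5, 92.9, 75.1 and 58.5 CPM at 0, 60, 120, 240, 600 and 720 min. It was highest at 240 min, at 1.90-fold (95% interval 1.69 to 2.14) of the 0 min level, and the bend was 0.97 ± 0.20 (SE, edgeR adjusted p = 0.0034). This was the largest bend among the members, and it passed under each of the 18 alternatives. WDR43, of the same subcomplex, was at 35.2, 42.6, 54.8, 58.8, 55.8 and 53.1 CPM and had a bend of 0.60 ± 0.20 (SE, edgeR adjusted p = 0.039). WDR75, also of that subcomplex, was at 90.9, 103, 102, 129, 112 and 88.0 CPM and had a bend of 0.55 ± 0.17 (SE, edgeR adjusted p = 0.026). All 3 were highest at 240 min. HEATR1, the remaining listed gene of the subcomplex, was at 133, 132, 127, 119, 149, 139 and 108 CPM at the 7 times and had no call, with a bend of 0.19 (edgeR adjusted p = 0.41).

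WDR36, a propeller protein of another processome subcomplex, was at 69.3, 95.7, 101, 114, 90.5 and 74.8 CPM, highest at 240 min and near its first level at the end. Its bend was 0.70 ± 0.18 (SE, edgeR adjusted p = 0.012). UTP18, of the same subcomplex, stayed between 55.3 and 64.9 CPM and was not called. The helicase gene DDX10 was at 225, 301, 300.2, 419.9, 379, 380.2 and 361 CPM at all 7 times. It was highest at 240 min, at 1.87-fold (95% interval 1.77 to 1.97) of the 0 min level, and was still 1.60-fold (95% interval 1.51 to 1.70) of it at 720 min. The bend was 0.52 ± 0.15 (SE, edgeR adjusted p = 0.020) and the trend of 0.51 ± 0.23 (SE, edgeR adjusted p = 0.23) did not pass. UTP14A, which activates a helicase of the processome, was at 78.4, 81.9, 105, 113, 103 and 95.9 CPM with a bend of 0.49 ± 0.18 (SE, edgeR adjusted p = 0.049), the weakest of the calls.

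RRP9, which belongs to the U3 snoRNP at the heart of the processome, moved the other way. It was at 42.0, 28.1, 26.6, 28.0, 40.6 and 51.5 CPM, with the 3 libraries from 60 to 240 min the lowest and 720 min the highest. The bend was -0.75 ± 0.23 (SE, edgeR adjusted p = 0.026). This call was lost under 4 of 18 alternatives. With 0 min left out, the RRP9 bend shrank to -0.36 (edgeR adjusted p = 0.39). Dropping 120 min gave -0.68 (edgeR adjusted p = 0.066), and dropping 240 min gave -0.87 (edgeR adjusted p = 0.13). The offset for GC content and length described below gave -0.36 (edgeR adjusted p = 0.24). RRP12, an export factor of late particles, was at 25.8, 23.2, 21.6, 27.4, 35.8 and 32.4 CPM and highest at 600 min, with a trend of 0.58 ± 0.24 (SE, edgeR adjusted p = 0.19) that did not pass. No call was made for UTP3 (bend 0.50, edgeR adjusted p = 0.057), UTP20, NOP14, BYSL or the nuclease gene NOB1, whose bends lay between -0.21 and 0.50. Of the 6 upward calls of this class, UTP15 alone was kept when the 0 min library or the 240 min library was left out. UTP14A lost its call under 11 of 18 alternatives and WDR43 under 8.

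Among the 8 large-subunit factors, 1 rose and 1 bent downward. BOP1, PES1 and WDR12 encode the 3 proteins of 1 complex, PeBoW, that is needed to cut out the large-subunit RNA. BOP1 was at 53.8, 38.3, 28.3, 22.8, 30.8, 40.7 and 41.9 CPM from 0 to 720 min. It was lowest at 240 min, at 0.424-fold (95% interval 0.358 to 0.501) of the 0 min level, and all later libraries stayed below the first. The bend was -0.93 ± 0.23 (SE, edgeR adjusted p = 0.011). PES1 was at 30.3, 23.2, 19.6, 25.0, 26.8 and 40.7 CPM at the 6 times with a value, lowest at 120 min, and its bend of -0.61 ± 0.25 (SE, edgeR adjusted p = 0.072) did not pass. WDR12 was at 42.0, 37.0, 41.9, 44.6, 53.6 and 55.3 CPM with a trend of 0.51 ± 0.19 (SE, edgeR adjusted p = 0.17), which did not pass, and its bend was -0.02. The dip called for BOP1 was thus not called for its partners; whether the 3 genes differ was not tested. Without the 0 min library the BOP1 bend was -0.68 (edgeR adjusted p = 0.089), and without the 240 min library -0.74 (0.082).

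NOP16, a nucleolar protein of early large-subunit particles, was at 98.7, 97.6, 96.8, 110.0, 145 and 163 CPM at 0, 60, 120, 240, 600 and 720 min. The first 3 libraries lay within 2 CPM of each other, and the last 2 were the highest. The trend was 0.77 ± 0.16 (SE, edgeR adjusted p = 0.028), and it lost its call under 7 of 18 alternatives, among them leaving out the 60, 120, 600 or 720 min library (edgeR adjusted p between 0.091 and 0.15). NOP2, an RNA methyltransferase and the member of this class with the highest mean level, was at 123, 137, 155, 161, 139 and 164 CPM with a trend of 0.19 ± 0.19 (SE, edgeR adjusted p = 0.62) and no call. GNL3, the gene of nucleostemin, was highest at 120 min at 96.0 CPM against 64.8 CPM at 0 min, with a bend of 0.35 (edgeR adjusted p = 0.19). RRP1B and RRS1 were not called either, with bends of 0.30 and -0.42.

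The remaining 4 genes encode abundant nucleolar proteins with several roles. DDX21, a helicase that acts on RNA polymerase I transcripts and on snoRNAs, was at 581, 777, 747, 996, 1054, 1018 and 938 CPM from 0 to 720 min. All 6 lit libraries were above the unlit one, and the highest, at 480 min, was 1.81-fold (95% interval 1.75 to 1.88) of it. The bend was 0.49 ± 0.12 (SE, edgeR adjusted p = 0.011) and the trend of 0.61 ± 0.21 (SE, edgeR adjusted p = 0.12) did not pass. The UMIs of DDX21 numbered 2868 to 3775 of 4096 possible, where the correction for repeated UMIs is steep. With the uncorrected UMI counts its bend was 0.01 (edgeR adjusted p = 0.94), and with read counts, which have no such ceiling, 0.89 (0.0030). NPM1, a chaperone that shapes the nucleolus, was at 1311, 1166, 1151, 1053, 1240.2 and 1235 CPM with a trend of 0.04 ± 0.15 (SE, edgeR adjusted p = 0.92) and a bend of -0.26 ± 0.13 (SE, edgeR adjusted p = 0.15). Its 3562 to 3826 UMIs lie closer still to the ceiling, and processed copies of this gene elsewhere in the genome make its counts uncertain. NCL, the gene of nucleolin, was at 384, 367, 356, 334, 369.5, 366 and 438 CPM with no call (bend -0.26, edgeR adjusted p = 0.11). LYAR varied between 138 and 195 CPM, highest at 480 min, and was not called.

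Set side by side, the classes held different numbers of each shape. RNA polymerase I had 2 upward bends and 0 downward among 4 genes, with a median bend of 0.57. The snoRNP core had 0 upward and 2 downward among 7, with a median of -0.16. The processing factors had 6 upward and 2 downward among 23, with a median of 0.19, and within them the small-subunit genes had a median of 0.30 and the large-subunit genes of -0.06. Over all genes tested 17.5% bent upward and 13.7% downward, and the median was 0.01. At 120 min the median log2 ratio to 0 min was 0.47 for RNA polymerase I, -0.18 for the snoRNP core and 0.13 for the processing factors. At 720 min it was 0.05, 0.21 and 0.29. The classes are small and their members overlapped in range: the bends ran from -0.25 to 0.76 in RNA polymerase I, from -0.79 to 0.25 in the snoRNP core and from -0.93 to 0.97 in the processing factors. No test of the difference between classes was made. With the offset for GC content and length described below, only UTP15 and NHP2 kept their bends, and both RNA polymerase I calls were lost.

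The members also differed in when they peaked. Of the 28 without a value at 480 min, 11 peaked at 240 min and 9 at 720 min, against 25.2% and 19.8% of all genes tested on 6 libraries. Of the 12 with all 7 values, 4 were highest at 720 min, 3 at 480 min and 1 at 240 min, while 6 were lowest at 0 min and 4 at 240 min. Among genes tested on 7 libraries 19.5% were highest at 720 min, 14.9% at 480 min and 18.2% at 240 min, and 19.4% were lowest at 0 min and 17.1% at 240 min. At 240 min the counting interval of the ratio to 0 min lay above 1 for 22 members (55%), below 1 for 11 (27.5%) and across 1 for 7. Of 8690 genes with a mean of at least 147 counts in the 2 libraries, the lowest count of any member, it lay above 1 for 41.2% and below 1 for 38.3%. By 720 min it lay above 1 for 25 members (62.5%), below 1 for 4 (10%) and across 1 for 11, against 34.6% above and 32.1% below among 8230 such genes.

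The direction of the bend followed the base composition of the transcripts. The 9 members that bent upward had transcripts of 37.3% to 48.4% GC, and the 4 that bent downward 57.1% to 65.2%, in GENCODE 29 (1 coding transcript a gene). UTP15 was at 41.0% GC, RRN3 at 41.5% and POLR1B at 44.8%, whereas NHP2 was at 57.1%, FBL at 57.9% and BOP1 at 65.2%. Across the 40 members, which share the same libraries and are not independent replicates, the bend and GC content had a Pearson correlation of -0.73 (Spearman -0.69). The same held across all 12549 tested genes with a known GC content, at -0.38 (Spearman -0.43). In the fifth of genes with the least GC, 36.0% of all genes and 5 of 7 members bent upward, and 2.99% of all genes and 0 members bent downward. In the fifth with the most GC, 4.38% of all genes bent upward and 29.3% downward, and of 4 members 2 bent downward. The members' directions were therefore those common among genes of like composition. Transcript length, as log2, was related to the bend as well, with a Pearson correlation of 0.45 over the members and 0.23 over all genes.

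**Figure D3:**
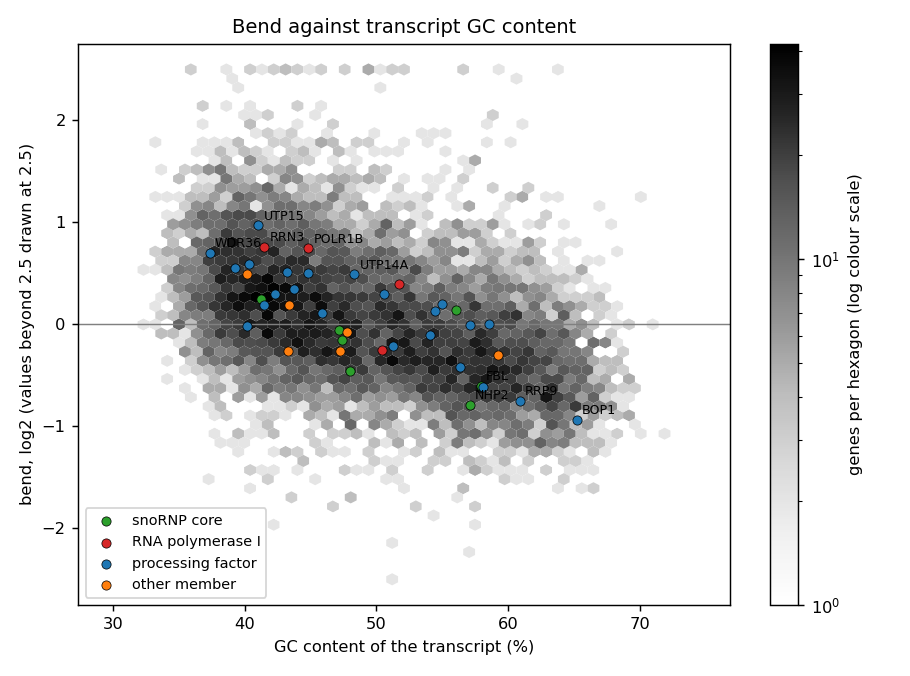
Bend (log2) against GC content of the transcript (%) for 12549 tested genes as grey hexagons, shaded by the number of genes, and for the 40 members as coloured points by role, 9 of the 13 with a called bend being labelled. Members that bent upward lie at the left and those that bent downward at the right, along the slope of all genes.

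When each library was corrected for GC content and length with a smooth offset, a step chosen after the data were seen, 3 members had a bend in place of 13, and 2512 of the 12549 genes with a known GC content did, in place of 4238 of 13566. UTP15 kept its upward bend at 0.74 (edgeR adjusted p = 0.017) and NHP2 its downward bend at -0.43 (0.044). NCL gained one at -0.49 (0.010). The other 11 kept their direction and lost the call: RRN3 was at 0.38 (0.10), POLR1B at 0.45 (0.086), DDX21 at 0.03 (0.88), BOP1 at -0.54 (0.11) and FBL at -0.26 (0.16). For trends the count went from 2 to 3 members, and over all genes from 930 of 13566 to 1193 of 12549. GAR1 was at 0.85 (edgeR adjusted p = 0.014), DDX21 at 0.65 (0.013) and TCOF1 at 0.65 (0.044), while NOP16 no longer passed at 0.58 (0.057). The changes of GAR1, UTP15 and NHP2 are thus the ones called with and without the offset. The offset takes out any change that genes of like GC content and length share, whatever its source. It is therefore no test of the part of base composition in these bends, which was not tested.

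**Figure D4:**
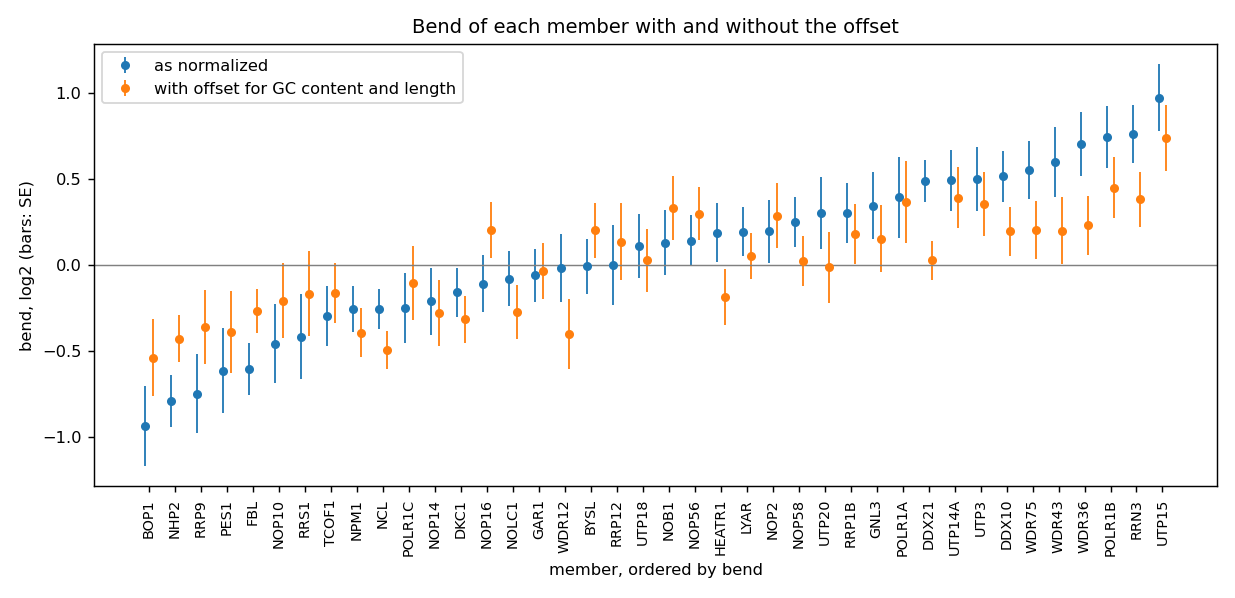
Bend (log2, with SE bars) of each of the 40 members, ordered by its value as normalized (blue) and beside it with the offset for GC content and length (orange). The offset values are nearer 0 for most members at either end; UTP15 stayed the highest at 0.74.

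The E-box was more frequent in the members' promoters than in promoters at large. RefSeq promoter windows of 300 bases (250 before the start to 50 after it) were found for 33 members, and 15 of these (45.5%) held CACGTG, against 8.77% of all 27305 genes with a window. Of the genes tested here, 9732 of 13542 symbols had a window, and 12.7% of these held the motif. Counted by window, the share was 37.5% of 40 and 7.26% of 35116. The motif was found in 3 of the 9 genes that bent upward, in 2 of 3 matched genes that bent downward and in 10 of 21 others, so it was present on both sides. It was in 0 of 4 RNA polymerase I genes. In the sequences shown above, DDX21 and WDR43 bent upward with the motif and FBL and RRP9 bent downward with it. A match is a run of letters in this window and was not tested for binding.

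Genes of the MYC network were read from the same libraries. MYC was at 2.94, 13.4, 14.6, 14.8, 9.09, 7.57 and 6.87 CPM from 0 to 720 min, so all 6 lit libraries were above the unlit one, and its bend of 1.21 ± 0.63 (SE, edgeR adjusted p = 0.18) did not pass. MAX, its partner, was at 92.8, 95.6, 92.1, 108, 104, 126 and 161 CPM with a trend of 0.68 ± 0.18 (SE, edgeR adjusted p = 0.054), which did not pass. Of the MAX-binding repressors, MXD1 was at 4.94, 9.64, 10.4, 12.7, 28.8, 28.1 and 26.3 CPM, with a trend of 2.27 ± 0.37 (SE, edgeR adjusted p = 0.0093), and it bent upward by 0.78 (edgeR adjusted p = 0.031). MXI1 rose, with a trend of 0.86 ± 0.21 (SE, edgeR adjusted p = 0.042). MXD3 and MXD4 bent downward, with bends of -1.36 and -0.68 (edgeR adjusted p = 0.0042 and 0.0082). MNT and MLX were not called, and MYCN did not pass the filter on low counts.

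A wider list of other ribosome biogenesis genes, also drawn up with earlier results of these data known, gave a like picture. Of 96 genes, 95 were tested: 3 rose (RSL24D1, MDN1 and SENP3), 0 fell, 19 bent upward (20%, against 17.5% of all genes) and 6 downward (6.32%, against 13.7%), with a median bend of 0.09. By p-value, the first of the upward bends was that of NOC3L, a large-subunit factor, which was at 68.4, 102, 121, 160.3, 114 and 75.7 CPM at the 6 times with a value and had a bend of 1.28 ± 0.18 (SE, edgeR adjusted p = 0.00065). TAF1D and TAF1A, subunits of the factor that selects the RNA polymerase I promoter, had bends of 0.98 and 1.29 (edgeR adjusted p = 0.0042 and 0.0051), and UTP23, a processome protein, of 0.94 (0.0054). The downward bends with the smallest p-values were those of IMP3, which binds the U3 snoRNA, at -0.70 (0.0048) and WDR18, of the large-subunit pathway, at -0.94 (0.0094). With the offset for GC content and length, 6 of the 95 had a bend (4 upward, 2 downward) and 7 rose. Over the 12549 genes with a known GC content, 1234 bent upward and 1278 downward with the offset, and 681 rose.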

How the data were processed

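The members, their classes and the lists were chosen with earlier results of these data known. For each library the authors deposited tables of reads, UMIs and transcripts per gene in estimated counts, which need not be whole. Correcting the UMI counts for repeated use of 4096 possible UMIs gives the transcript counts (largest difference 7.39e-10). BWA and the build hg19 are named in the submitters' processing notes. For their versions, the counting program and its treatment of reads that match several genes, the sources used here give nothing.

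The column of barcode 4, the primer named in the labels, was used, and the deposited transcript counts were rounded to whole numbers. ERCC spike-in rows, 0.00658% to 0.00999% of the gene transcripts in the complete libraries, were left out. Genes up to NME1-NME2 in the alphabet entered the fit with 7 libraries and those after it with 6, since the 480 min table ends there; of 7059 genes within its range with at least 10 counts in the other 6 libraries, 0 were missing from it. A gene needed 10 counts in 3 libraries to be tested, with the robust quasi-likelihood F test of edgeR 4.0.16 (R 4.3.3, TMM scaling), and p-values were adjusted over all 13566 genes by the Benjamini-Hochberg method. Both tests were tested on simulated data. Ratios to 0 min used a prior count of 2, and folds with exact binomial intervals used the rounded transcript counts without it.

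Full values are given for the member of highest mean level in each class, the members with the smallest adjusted p for the bend (up to 12) or the trend (up to 8), members called against the common direction, and the 6 genes of smallest bend p in the wider list; RSL24D1, MDN1, SENP3, UTP14A and members named with a range were added. GC content and length are those of the longest coding transcript in GENCODE 29, found for 92.5% of genes tested. The alternatives were other count tables, scalings, filters and time scales, DESeq2 1.42.0, thinning, leaving out each library, and an offset for GC content and length (loess, span 0.3) added after the data were seen.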

Additional observations from a re-analysis of the deposited data

Results flagged for a closer look

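The tables hold 95 barcode columns besides the one used. Transcripts of the members appeared there in every library, although no sample is assigned to those columns. In the 6 complete libraries their number was between 39.9 and 90.4. At 480 min, where 12 of the 40 members are listed, it was 31.0. It was highest in the 600 min library, where it came to 0.136% of the members' transcripts in the column used. No control library shows which level to expect, and the source of these counts was not tested.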

How the results depend on the processing

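Each of 13 called bends and 2 called trends was set against 18 alternatives, and 0 of them reversed. A bend was lost in 52 of 234 comparisons and a trend in 9 of 36; UTP15 and NHP2 kept their bends under all 18. In place of 13 members with a bend, 2 to 14 of the 40 were called when 1 library was left out (1 to 10 upward in place of 9, 1 to 4 downward in place of 4). The fewest were called without the 0 min library (2 members, and 1933 of all genes) and without the 240 min library (3 members, and 1320 of all genes). The offset for GC content and length left 3 members (1 upward, 2 downward) and took their median log2 ratio at 480 min from 0.183 to 0.039. In place of 2 members with a trend, 0 to 3 of the 40 were called when 1 library was left out, 0 without the 600 or the 720 min library, and 1 with ranks in place of minutes. Over all genes, 930 trends became 135 to 1481 when 1 library was left out and 1572 with DESeq2, and 4238 bends became 2512 with the offset. Under the alternatives, GNL3, NCL, PES1 and UTP3 gained a bend and DDX21, RRP9 and TCOF1 a trend at least once. The cause was not tested. Leaving out a library removes a residual degree of freedom from the fits that used it. Members without a value at 480 min lost no count of their own when that library was left out. The comparison is still counted for them above, also among the losses of UTP14A. DDX10, like DDX21, lost its bend with UMI counts (0.29, adjusted p = 0.087 with edgeR). No paired analysis was possible because each time has 1 library and the labels give no replicate numbers.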
